A study of Mus musculus with 7 samples.

Results

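Peaks of open chromatin were counted at 32 mouse genes that encode collagens and other proteins of the connective tissue matrix, of 21883 protein-coding genes with a position in the annotation. The genes are a list of names: 6 encode chains of the fibril collagens I, III, V and XI, 4 encode collagen VI and XII chains, 7 encode small leucine-rich proteoglycans, 12 encode glycoproteins and microfibril proteins, and 3 act in crosslinking and turnover. In the tooth these proteins are made mainly by the mesenchyme, the loose tissue that becomes pulp, dentin-forming odontoblasts and the follicle, whereas epithelium makes keratins, cell junction proteins and a basement membrane. Fibril collagens are secreted as precursors, assemble outside the cell, and are crosslinked by lysyl oxidase. Proteoglycans and collagens VI and XII bind the fibril surface, and fibrillins form microfibrils.

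The assay was Omni-ATAC, an ATAC-seq protocol in which a transposase tags accessible DNA, and it was run on 7 libraries in 5 groups. First-arch ectoderm, from which tooth epithelium forms, came from embryos at day 11.5, was loosened from the mesenchyme with Dispase II and gave 2 libraries. Sox2-positive cells gave 2 libraries; they were sorted by FACS from the labial cervical loop, the growing epithelial end of the lower incisor, of Sox2-GFP mice at postnatal day 2, with GFP driven by the endogenous Sox2 promoter, and the labels name them DESC, short for stem cells of dental epithelium. Day 2 pups also gave 1 library each from the entire lower incisor, lower first molar and upper first molar. Whole teeth hold mesenchyme as well as epithelium. Strain, the number of animals pooled and the genotype of the ectoderm and whole-tooth donors are not given in the sources used here, and nothing there states that replicates came from separate animals, so the spread between them may be technical.

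The lists held 39017 to 82461 peaks, most in ectoderm replicate 1 and fewest in Sox2-positive replicate 2. Peak lists carry no read counts, so depth is unknown and a missing peak does not show closed chromatin. Counts are therefore given with full lists, at equal length or both, as stated beside each; equal length means the 38000 autosomal peaks of smallest p-value in each library. Those were 47.0% of the autosomal peaks of ectoderm replicate 1 and 99.1% of those of Sox2-positive replicate 2. At equal length 31 of the genes are counted, since Bgn lies on chromosome X. With 2 libraries against 2, an exact two-sided permutation test cannot go below 0.333. Whole teeth also have 1 library each, so no test was made. Groups are called different where their counts do not overlap. The percentage of all genes that meet the same rule is given beside such counts. It is not given where single libraries are compared or left out, or for the alternative settings at the close. The ectoderm and whole-tooth comparisons use the same Sox2-positive libraries and are not independent of each other. In bulk material a change in the share of cells and a change within cells cannot be told apart.

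A gene-end peak has its summit within 1 kb of either end of the gene. With full lists, 16 of the 32 genes (50%) had one in all 7 libraries, against 48.8% of all genes, and 4 (12.5%) had one in none, against 32.9%. The gene starts of 5 genes are printed because they stand for the patterns found: Col1a2, an alpha chain of collagen I, had a start peak in all 7 libraries; Omd (osteomodulin) in both Sox2-positive libraries and all 3 teeth but not in ectoderm; Col6a1 in Sox2-positive replicate 2 and the 3 teeth; Col3a1 in the upper molar alone, at full list length; and Bgn (biglycan) in none. Each sequence runs 5′ to 3′ along the gene from 250 bases before to 50 bases after the RefSeq start, in build GRCm38.p6. Capitals mark matches on either strand to 5 motifs: TATAAA, the letters of a TATA box, CCAAT, the core of the CCAAT box, GGGCGG, the core of the GC box, TGANTCA, the letters of an AP-1 site, and TGTGGT, the core of a Runx site.
Col1a2 (chr6:4505368-4505667, plus strand): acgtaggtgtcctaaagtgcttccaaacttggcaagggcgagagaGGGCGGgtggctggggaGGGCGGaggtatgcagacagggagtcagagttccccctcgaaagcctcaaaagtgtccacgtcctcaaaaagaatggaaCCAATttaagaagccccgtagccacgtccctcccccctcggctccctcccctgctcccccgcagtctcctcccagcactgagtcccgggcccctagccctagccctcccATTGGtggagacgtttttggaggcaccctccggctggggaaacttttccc
Col3a1 (chr1:45311288-45311587, plus strand): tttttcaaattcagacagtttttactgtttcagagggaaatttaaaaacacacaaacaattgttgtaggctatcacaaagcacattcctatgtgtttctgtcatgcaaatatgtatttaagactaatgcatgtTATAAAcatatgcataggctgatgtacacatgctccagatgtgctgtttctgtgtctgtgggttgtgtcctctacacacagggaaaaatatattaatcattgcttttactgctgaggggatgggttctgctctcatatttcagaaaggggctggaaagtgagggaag
Col6a1 (chr10:76725995-76726294, minus strand): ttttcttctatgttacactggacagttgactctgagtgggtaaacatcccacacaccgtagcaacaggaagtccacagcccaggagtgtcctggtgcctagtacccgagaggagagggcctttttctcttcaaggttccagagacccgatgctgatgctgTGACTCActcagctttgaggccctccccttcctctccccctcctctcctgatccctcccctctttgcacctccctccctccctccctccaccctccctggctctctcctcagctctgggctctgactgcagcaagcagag
Bgn (chrX:73483351-73483650, plus strand): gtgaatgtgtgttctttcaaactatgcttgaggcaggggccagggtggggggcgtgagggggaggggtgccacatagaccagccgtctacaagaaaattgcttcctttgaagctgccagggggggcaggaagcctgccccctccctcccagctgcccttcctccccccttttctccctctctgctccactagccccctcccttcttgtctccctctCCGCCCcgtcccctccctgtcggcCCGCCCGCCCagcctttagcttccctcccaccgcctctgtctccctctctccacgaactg
Omd (chr13:49582212-49582511, plus strand): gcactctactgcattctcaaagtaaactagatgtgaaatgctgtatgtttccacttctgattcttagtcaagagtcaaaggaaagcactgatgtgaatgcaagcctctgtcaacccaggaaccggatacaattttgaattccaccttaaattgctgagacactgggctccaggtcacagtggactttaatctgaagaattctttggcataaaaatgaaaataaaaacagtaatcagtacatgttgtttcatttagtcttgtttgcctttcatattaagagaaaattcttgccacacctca

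Col1a2 held 2 GGGCGG and 2 CCAAT matches, 1 of the latter read on the other strand as ATTGG at the start itself, and its GC content was 61.0%. The Col3a1 start was AT-rich, with 37.7% GC and a TATAAA match 117 bases before the start. Col6a1 held an AP-1 match, TGACTCA, 90 bases before its start. Bgn had 63.7% GC and 3 GGGCGG matches on the other strand, 2 of which overlap, and none of the 7 libraries listed a peak there. Omd, with 37.7% GC, held none of the 5 motifs. RefSeq start sequences were matched for 21 of the 32 genes and for 17491 coding genes in all. TATAAA was found at 6 of the 21 (28.6%) and at 14.8% of all, CCAAT at 8 (38.1%) and 42.3%, GGGCGG at 10 (47.6%) and 49.2%, TGANTCA at 1 (4.76%) and 8.12%, and TGTGGT at 2 (9.52%) and 17.2%. The 10 genes with a start peak in all 7 libraries had a median GC of 60.7% (47.3% to 75.0%). The 3 with none, Bgn, Tnn and Aspn, had a lower median of 44.3%. Bgn was the highest of these 3, with 63.7%, and Aspn the lowest. A match describes letters and not a bound site.

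**Figure D1:**
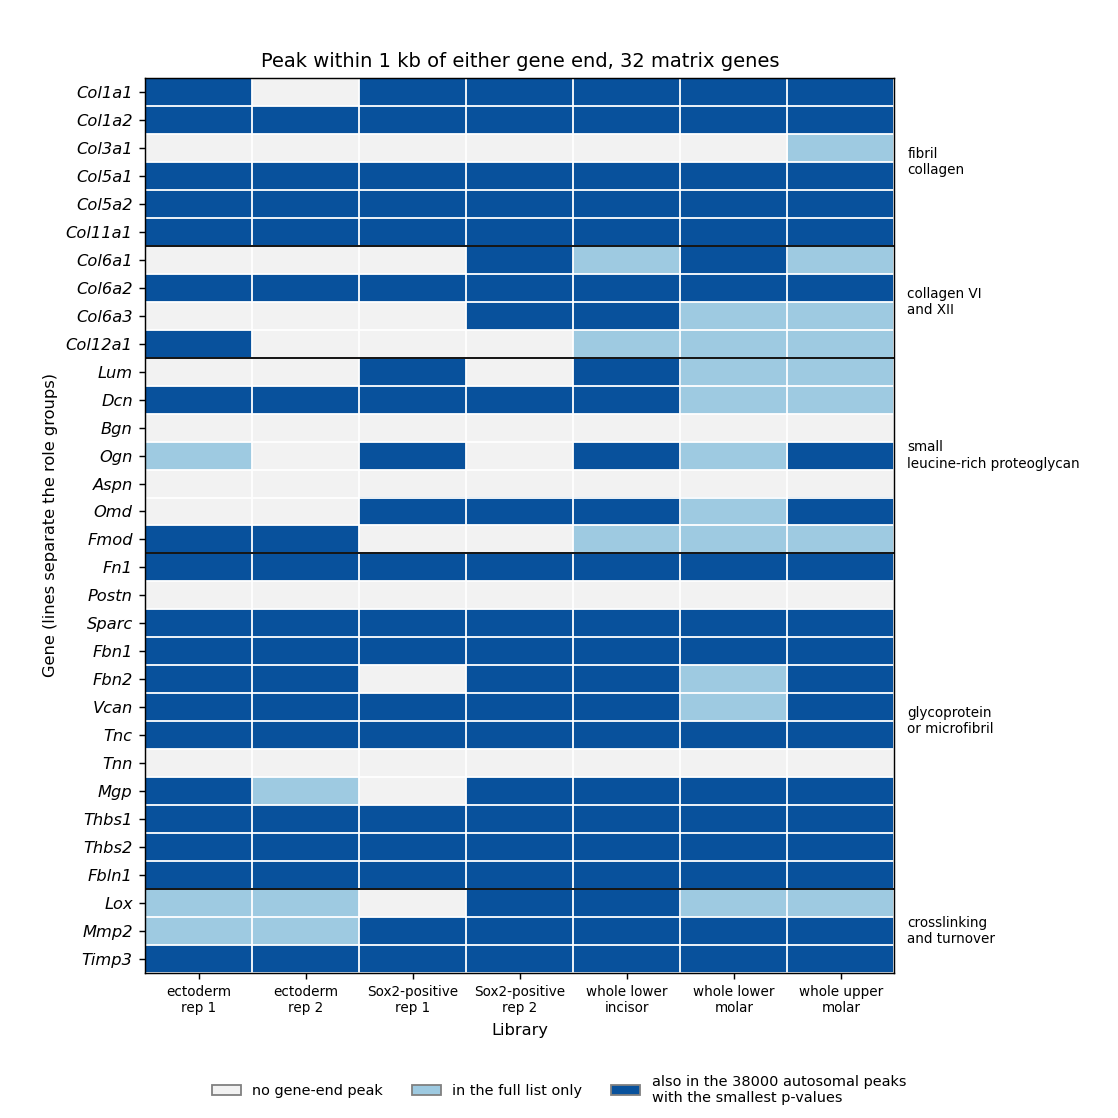
Peaks within 1 kb of either end of the 32 genes (vertical axis, by role) in the 7 libraries (horizontal axis); dark blue marks a peak that is also among the 38000 autosomal peaks of smallest p-value, light blue a peak in the full list only, and grey none. The band of genes filled across all 7 columns numbers 16, and the Fmod row is empty in both Sox2-positive libraries.

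Across libraries, 23 and 20 of the 32 genes had a gene-end peak in ectoderm replicates 1 and 2, where 63.1% and 60% of all genes did. The 2 Sox2-positive libraries had 20 and 23, beside 54.6% and 53.3% of all genes. The lower incisor, lower molar and upper molar had 27, 27 and 28, beside 57%, 58.5% and 58.3%. At equal length the counts were 20, 17, 20, 23, 24, 17 and 20 of 31 in the same order, beside 56.6%, 58.3%, 54.9%, 54.8%, 52.6%, 53% and 53.1% of all genes, so the excess in the molars depended on list length.

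The 16 genes with a gene-end peak in every library were Col1a2, Col5a1, Col5a2 and Col11a1 among the fibril collagens, Col6a2, Dcn (decorin), 8 glycoprotein genes (Fn1, Sparc, Fbn1, Vcan, Tnc, Thbs1, Thbs2 and Fbln1), and Mmp2 and Timp3, a matrix protease and a protease inhibitor. Dcn, Vcan and Mmp2 left this set at equal length, where 13 of 31 stayed, beside 46.5% of all genes. Some of these peaks stood near the top of every list: the Sparc gene-end peak lay between the 94.3 and 98.8 percentile of −log10 p in its library, Col5a1 between 90.2 and 97.1, and Col11a1 between 89.5 and 99.1. Low in the lists were those of Lox, the lysyl oxidase gene, with a median percentile of 15.5 over 6 libraries, and the single Col3a1 peak, at 9.64. No library had a gene-end peak at Postn (periostin), Bgn, Tnn (tenascin N) or Aspn (asporin), beside 32.9% of all genes with none. RefSeq lists a second start for Postn, and a peak lay there in every library but Sox2-positive replicate 1.

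Both Sox2-positive libraries had gene-end peaks at 18 of 32 genes (51.2% of all genes), both ectoderm libraries at 20 (59.4%), and all 3 teeth at 27 (54.4%). At equal length these were 18 of 31 (52%), 17 (55.2%) and 16 (49.5%). Omd alone had such a peak in the pair of Sox2-positive libraries but in no ectoderm library (0.786% of all genes). The Omd product is a keratan sulfate proteoglycan of mineralizing tissue; its gene ends held 0 and 0 peaks in ectoderm, 1 and 1 in Sox2-positive cells, and 1, 1 and 2 in incisor, lower and upper molar. At equal length Mmp2 joined it (1.45% of all genes). The converse, a peak in the ectoderm pair and in no Sox2-positive library, held for Fmod alone with either length (6.02% of all genes with full lists and 3.45% at equal length). Fmod (fibromodulin, which limits fibril width) had 2 and 2 gene-end peaks in ectoderm, 0 and 0 in Sox2-positive cells, and 3, 2 and 2 in the teeth. The whole teeth had a gene-end peak and Sox2-positive cells none at 2 genes, Col12a1 and Fmod, with full lists (1.45%), and at 0 with equal length (0.237%).

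A locus peak has its summit in the gene or within 25 kb of it. The pooled count over the genes separated the ectoderm from all other libraries at equal length. Summed over 31 genes there were 70 and 70 locus peaks in ectoderm, 113 and 131 in Sox2-positive cells, and 135, 103 and 103 in incisor, lower and upper molar. Ectoderm lay below the 5 other libraries, and the teeth overlapped Sox2-positive cells. The means were 70.0 ± 0.0 (SD, n = 2) in ectoderm and 122 ± 12.7 (SD, n = 2) in Sox2-positive cells, a ratio of 1.74. Relative to the peaks per 100 kb at the loci of all genes in the same library, density was 0.70 and 0.682 in ectoderm, 1.11 and 1.28 in Sox2-positive cells, and 1.37, 1.05 and 1.06 in the teeth. With full lists the sums were 164, 94, 124, 135, 226, 224 and 195, so ectoderm and Sox2-positive counts overlapped. The relative densities of 0.912, 0.752, 1.14, 1.33, 1.55, 1.42 and 1.28 kept ectoderm below the other libraries. By this measure the upper molar lay between the 2 Sox2-positive libraries. The median gene of the list spans 33.9 kb and the median of all genes 17.2 kb, which the density per 100 kb allows for. The windows of neighbours overlap: Col3a1 lies beside Col5a2, Aspn, Omd and Ogn form a row on chromosome 13, and Dcn lies next to Lum. At equal length the peaks counted for more than 1 gene all lay among the small leucine-rich proteoglycans. The fibril collagens shared none at either length. Counting each peak once gave 70, 70, 111, 130, 133, 102 and 99 at equal length.

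**Figure D2:**
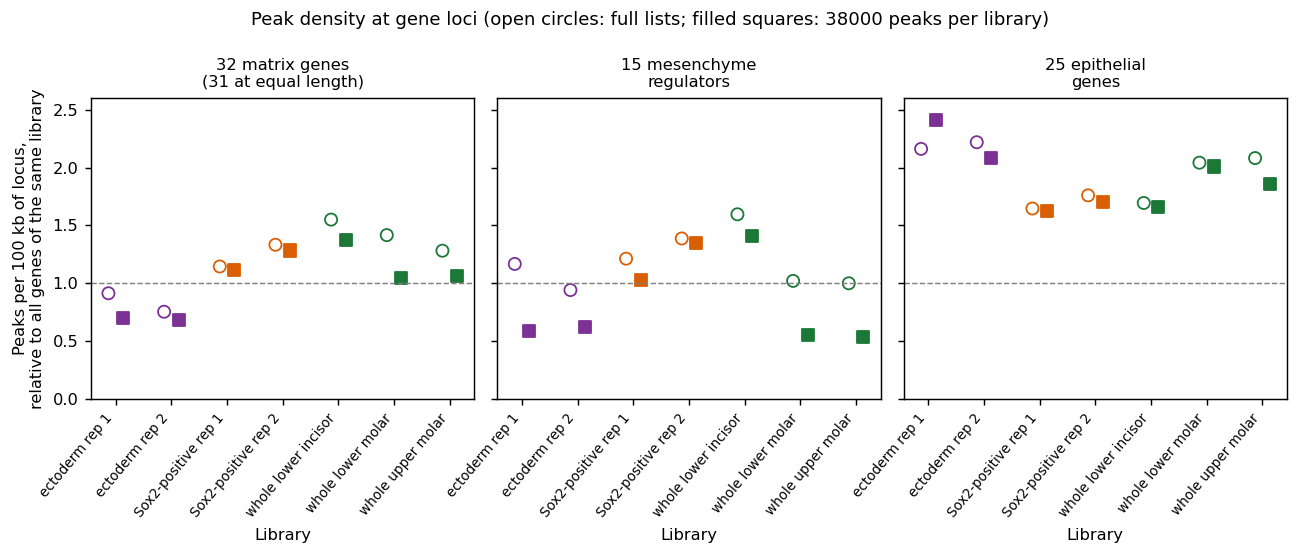
Peaks per 100 kb of locus divided by the same value for all genes in the library (vertical axis) for 3 gene lists in the 7 libraries (horizontal axis); open circles are full lists, filled squares 38000 peaks per library, and the dashed line is the level of all genes. For the matrix genes both ectoderm libraries lie below 1, and the Sox2-positive and whole-tooth libraries lie above 1 by either measure.

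Ectoderm and the sorted cells, which the labels call stem cells of dental epithelium, should both be epithelial, so marker lists were counted in the same way. At 25 epithelial genes the equal-length sums were 161 and 143 in ectoderm, 110 and 116 in Sox2-positive cells, and 109, 132 and 121 in the teeth. At equal length, epithelial genes with a gene-end peak numbered 19 and 19 in ectoderm and 17 and 19 in Sox2-positive cells. The teeth had 8, 14 and 14. Of all genes, 52.6% to 58.3% had one in each library. With full lists 17 of the 25 had one in both Sox2-positive libraries, beside 51.2% of all genes. Both ectoderm libraries had one at 19, beside 59.4%. Krt5, Cdh1 and Epcam were in both sets. Krt14, Krt17 and Esrp1 were in the Sox2-positive set alone, and Krt15, Grhl3, Cldn3, Cldn7 and Col17a1 in the ectoderm set alone. In number of epithelial gene ends the sorted cells were within the range of ectoderm or 2 genes below it, with fewer peaks around them. At 15 regulators of mesenchyme, such as Twist1, Prrx1 and Pdgfra, the sums were 26 and 28, 46 and 61, and 61, 24 and 23. Of these 15 regulators, 9 (60%) had a gene-end peak in the Sox2-positive pair with full lists, beside 51.2% of all genes. In the ectoderm pair 11 did, beside 59.4%. At equal length the counts were 9 and 6, beside 52% and 55.2% of all genes. Pdgfra, a growth factor receptor of mesenchyme, was the 1 of the 15 with gene-end peaks in the Sox2-positive pair and none in ectoderm with full lists (0.786% of all genes). The ectoderm pair, with 11, in turn held regulators that the Sox2-positive pair, with 9, did not, and these are not named here. Odontoblast and bone genes gave 26 and 26, 31 and 52, and 49, 43 and 37. Endothelial genes gave 30 and 41, 41 and 52, and 44, 33 and 35, and pericyte and smooth muscle genes 27 and 23, 33 and 38, and 26, 28 and 27. Schwann and neural genes gave 32 and 29, 30 and 32, and 24, 30 and 28, and blood and immune genes 23 and 24, 23 and 29, and 24, 21 and 24, so these lists overlapped between the sources. Genes of dental epithelium gave 21 and 26, 17 and 14, and 12, 18 and 22, lower in Sox2-positive cells than in ectoderm. At equal length the sums of mesenchyme regulators moved with those of the matrix genes in ectoderm, Sox2-positive cells and incisor but not in the molars. With full lists that order was lost: mesenchyme regulators had 91 and 51 locus peaks in ectoderm, 57 and 61 in Sox2-positive cells, and 101, 70 and 66 in the teeth. Ectoderm and Sox2-positive cells also overlapped there for odontoblast and bone genes, with 58 and 36 against 34 and 53, endothelial genes, with 79 and 51 against 42 and 52, and pericyte and smooth muscle genes, with 44 and 32 against 36 and 38. In full-list density relative to all genes, mesenchyme regulators did not overlap, with 1.17 and 0.940 in ectoderm against 1.21 and 1.39 in Sox2-positive cells. Pericyte and smooth muscle genes did not either, with 1.31 and 1.37 against 1.78 and 2.00. Odontoblast and bone genes, with 0.950 and 0.848 against 0.924 and 1.54, overlapped. So did endothelial genes, with 1.11 and 1.03 against 0.981 and 1.30. Separation by density was thus not particular to the matrix genes. Full-list sums of epithelial genes were 255 and 182, 117 and 117, and 162, 212 and 208. The part of other cells in the Sox2-positive libraries was not tested.

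At equal length, 14 of 31 matrix genes (45.2%) had more locus peaks in both Sox2-positive libraries than in both ectoderm libraries, and 15.2% of all genes did. The reverse held for 2 genes, Tnc and Thbs1 (6.45%), beside 17.9% of all genes. Aspn and Omd are both among the 14, but their windows overlap. Their Sox2-positive counts are not separate, since the Aspn peaks, of 0.582 and 0.422 kb, match the Omd gene-end peaks of 582 and 422 bp. The share of all genes also counts neighbours with overlapping windows apart. With full lists the counts were 4 genes (Col1a1, Col1a2, Col5a1 and Col6a3) beside 3.46% of all genes, and 5 genes (Col11a1, Tnc, Mgp, Fmod and Thbs1) beside 34.4%. The 4 became 13 without ectoderm replicate 1, 11 without Sox2-positive replicate 1 and 7 without Sox2-positive replicate 2. The 5 became 14 without ectoderm replicate 2. Leaving out a library relaxes the rule for every gene, and these counts have no share of all genes beside them. A broad open stretch can be listed as 1 peak or several, so peaks were also joined across libraries into merged regions and each region counted once, a choice made after seeing the data. The equal-length count was again 14, with 13 of the genes shared, beside 13.7% of all genes; Vcan left and Sparc entered.

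**Figure D3:**
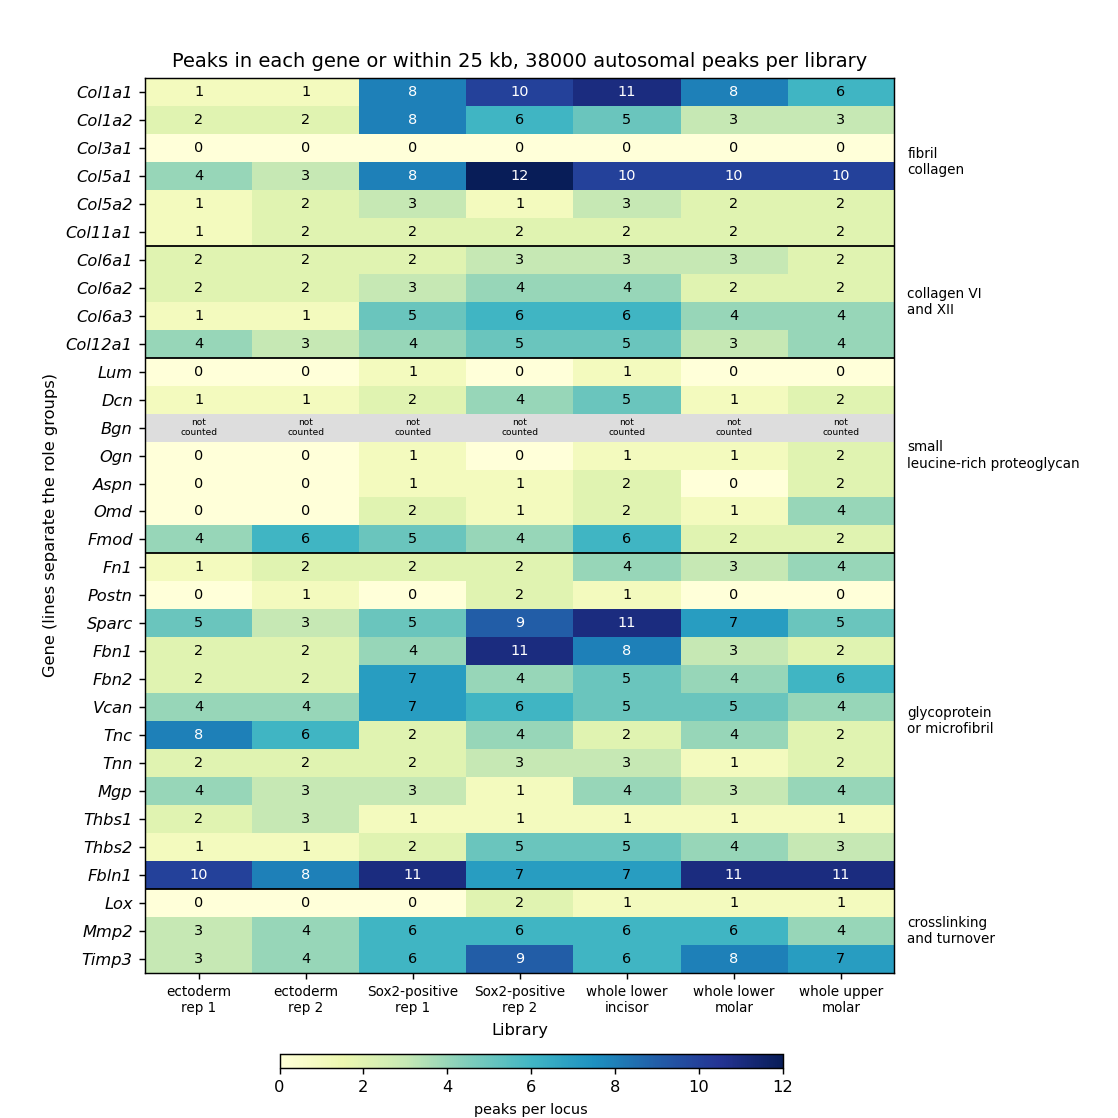
Locus peaks of each gene (vertical axis, by role) in each library (horizontal axis) at 38000 autosomal peaks per library; numbers and color give the peak count, and Bgn on chromosome X is not counted. Col1a1, Col1a2, Col5a1 and Col6a3 are low in the 2 ectoderm columns and higher in both Sox2-positive columns, and Tnc runs the other way.

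Among the 5 role groups, fibril collagens had the largest ratio between these groups at equal length, with 9 and 10 locus peaks in ectoderm, 29 and 31 in Sox2-positive cells, and 31, 25 and 23 in the teeth. Density relative to all genes was 0.361 and 0.39 in ectoderm, 1.14 and 1.22 in Sox2-positive cells, and 1.26, 1.02 and 0.946 in the teeth. Full-list sums were 19 and 14, 29 and 31, and 48, 43 and 34, and ectoderm and Sox2-positive cells still did not overlap. Col1a1, which encodes the main chain of collagen I, had 1 and 1 locus peaks in ectoderm, 8 and 10 in Sox2-positive cells, and 11, 8 and 6 in incisor, lower and upper molar. Its full-list counts, 5 and 3, 8 and 10, and 16, 14 and 8, did not overlap between ectoderm and Sox2-positive cells either.

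The Col1a1 gene lies at chr11:94936224-94953042, 16.8 kb long. In ectoderm its only equal-length peak lay near the low-coordinate end of the gene, at chr11:94936847-94938005 in replicate 1 and chr11:94936753-94938101 in replicate 2, and by its summit it was a gene-end peak in replicate 1 only. Sox2-positive replicate 2 listed a single peak of 10981 bp within the gene, chr11:94940530-94951510, the widest at any of the 31 loci, and the lower incisor listed one of 7229 bp at chr11:94943548-94950776. Peaks covered 1.16 and 1.35 kb of the Col1a1 locus in ectoderm, 5.24 and 20.7 kb in Sox2-positive cells, and 21.0, 9.58 and 5.48 kb in the teeth. These values are for the gene with 25 kb on either side and not for the gene alone. Over this stretch Sox2-positive replicate 2 and the incisor were covered most, and Sox2-positive replicate 1 about as much as the upper molar. Which part of the gene is exon or intron is not given in the files used.

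Col1a2 (chr6:4505618-4541543), the partner chain, had 2 and 2 locus peaks in ectoderm at either list length. Sox2-positive cells had 8 and 6, and the teeth 5, 3 and 3 at equal length. The start peak was common to all 7 libraries, and the second ectoderm peak lay beyond the far end of the gene, 55.7 and 55.6 kb from the start, where no other library had a peak. Upstream, between 15.5 and 17.1 kb before the start, both Sox2-positive libraries listed 4 peaks of 261 to 386 bp each, and the incisor listed a 1424 bp peak and a 407 bp peak over the same stretch. Another peak, 21.2 kb before the start, was in both Sox2-positive libraries and in the incisor. Counted as merged regions, Col1a2 had 2 and 2 in ectoderm, 6 and 4 in Sox2-positive cells, and 5, 3 and 2 in the teeth.

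Col5a1 (chr2:27886381-28039510), which encodes a chain of collagen V, the collagen that starts fibrils, had 4 and 3 locus peaks in ectoderm, 8 and 12 in Sox2-positive cells, and 10 in each tooth. Within the gene, 4 peaks between 45.8 and 53.2 kb from the start and 1 at 85.9 kb were in both Sox2-positive libraries and not in ectoderm, and the first 3 of the 4 and the last were also in all 3 teeth. Peaks at 94.8 kb and 120.0 kb were in both ectoderm libraries and in no Sox2-positive library. At Col5a1 the sources thus listed separate internal sites around a shared start peak.

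Other fibril collagens differed little. Col5a2 had 1 and 2 locus peaks in ectoderm, 3 and 1 in Sox2-positive cells, and 3, 2 and 2 in the teeth, and Col11a1, a chain of the cartilage-type collagen XI, had 1 and 2, 2 and 2, and 2 in each tooth. For Col3a1, the collagen III gene, no library had a locus peak at equal length, and with full lists 1 peak was in ectoderm replicate 1 and 1 in the upper molar.

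**Figure D4:**
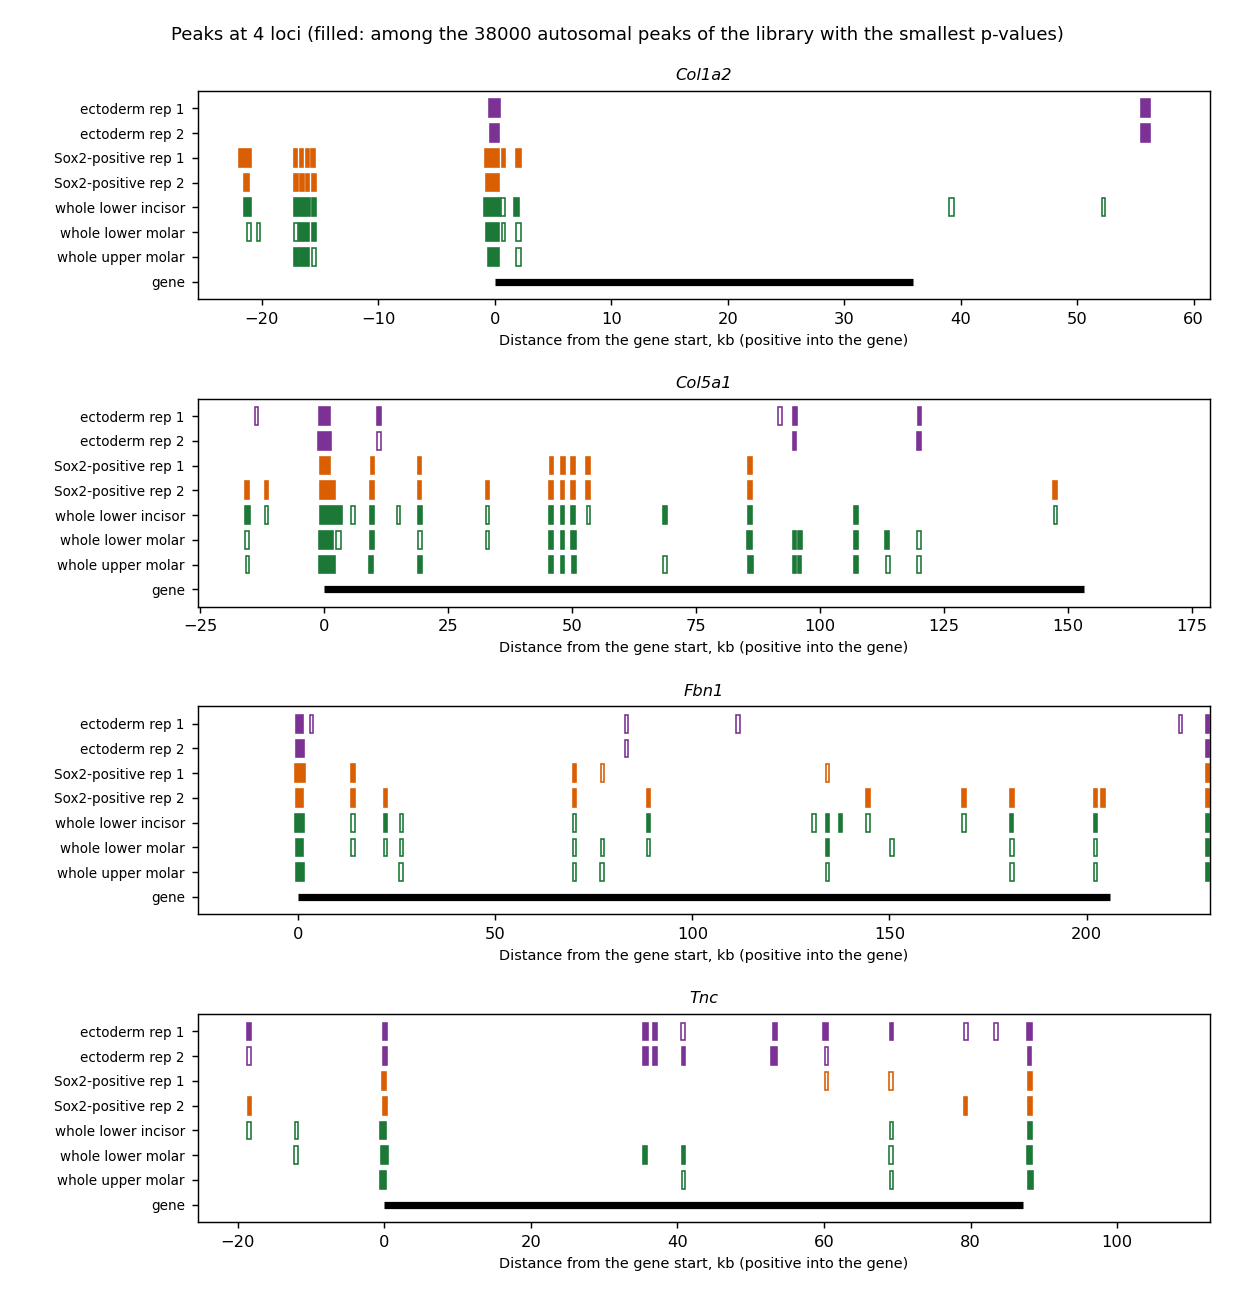
Peaks of each library (rows) at 4 genes by distance from the gene start in kb (horizontal axis, positive into the gene); filled boxes are among the 38000 autosomal peaks of smallest p-value, open boxes are in the full list only, and the black bar is the gene. Col1a2 has a block of peaks upstream of the start in Sox2-positive cells and the incisor, and Tnc has internal peaks in ectoderm. Col5a1 and Fbn1 have internal peaks in Sox2-positive cells and the incisor, and Col5a1 also has some in the molars and in ectoderm. At Fbn1 the lower and upper molar have 3 and 2 equal-length locus peaks, against 2 and 2 in ectoderm.

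Collagen VI, which forms beaded filaments around cells, and collagen XII, which bridges fibrils, had 9 and 8 locus peaks in ectoderm, 14 and 18 in Sox2-positive cells, and 18, 12 and 12 in the teeth at equal length. With full lists ectoderm, with 14 and 9, and Sox2-positive cells, with 14 and 18, overlapped. Col6a3 (chr1:90766860-90844001) gave most of this difference, with 1 and 1, 5 and 6, and 6, 4 and 4. Its ectoderm peak lay 67.9 kb into the gene, at the 96.0 and 83.9 percentile of the ectoderm lists, near a peak 68.2 kb into the gene in both Sox2-positive libraries. Col6a2 had 2 and 2, 3 and 4, and 4, 2 and 2, so that the 2 sources did not overlap but lay 1 peak apart. Col6a1 had 2 and 2, 2 and 3, and 3, 3 and 2. The gene-end peaks of Col6a1 and Col6a3 were, with full lists, each missing in both ectoderm libraries and Sox2-positive replicate 1 and present in the other 4. At equal length Col6a1 had one in Sox2-positive replicate 2 and the lower molar, and Col6a3 in Sox2-positive replicate 2 and the incisor. Col12a1 had the most peaks of this group with full lists after Col6a3, 6 and 4 in ectoderm, 4 and 5 in Sox2-positive cells, and 12, 7 and 6 in the teeth, with overlap between the first 2 sources.

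Small leucine-rich proteoglycans, which coat collagen fibrils, had few peaks. The 6 autosomal genes summed to 5 and 7 locus peaks in ectoderm, 12 and 10 in Sox2-positive cells, and 17, 5 and 12 in the teeth, so the lower molar was as low as ectoderm. With full lists and Bgn counted, ectoderm had 20 and 9 and Sox2-positive cells 15 and 14, which overlapped. Dcn had 1 and 1, 2 and 4, and 5, 1 and 2. Aspn had 0 and 0, 1 and 1, and 2, 0 and 2, and Omd 0 and 0, 2 and 1, and 2, 1 and 4; both were without a peak in ectoderm at equal length, and with full lists ectoderm replicate 1 had 1 at Aspn and 2 at Omd. Lum (lumican) had a single peak in Sox2-positive replicate 1 and in the incisor, and Ogn (osteoglycin) had 0 and 0, 1 and 0, and 1, 1 and 2. Fmod had the most, 4 and 6, 5 and 4, and 6, 2 and 2, so ectoderm and Sox2-positive counts overlapped at equal length. Most Fmod peaks lay beyond the gene, where a region at chr1:134060227-134061816, 12.7 kb outside, was in all 7 libraries at a mean percentile of 96.0. Bgn, with full lists, had 4 and 1, 2 and 4, and 7, 8 and 5 locus peaks although none lay at its ends.

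Glycoprotein and microfibril genes had the smallest ratio of sums between the sources at equal length, with 41 and 37 locus peaks in ectoderm, 46 and 55 in Sox2-positive cells, and 56, 46 and 44 in the teeth. With full lists their sums overlapped, with 92 and 49 in ectoderm and 53 and 55 in Sox2-positive cells. Individual genes went in both directions. Fbn1 (chr2:125300594-125506485), the fibrillin of microfibrils, had 2 and 2, 4 and 11, and 8, 3 and 2, and its Sox2-positive replicates were 7 peaks apart. Fbn2, the embryonic fibrillin, had 2 and 2, 7 and 4, and 5, 4 and 6, but 17 in ectoderm replicate 1 with the full list. Vcan (versican, a hyaluronan-binding proteoglycan) had 4 and 4, 7 and 6, and 5, 5 and 4, and counted as merged regions 3 and 4, 6 and 3, and 4, 5 and 4. Thbs2 (thrombospondin 2) had 1 and 1, 2 and 5, and 5, 4 and 3.

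Against these, Tnc (chr4:63959785-64047015), which encodes tenascin C, an adhesion-modulating protein of embryonic tissue and wounds, had 8 and 6 locus peaks in ectoderm, 2 and 4 in Sox2-positive cells, and 2, 4 and 2 in the teeth. With full lists it had 11 and 8, 4 and 4, and 5, 6 and 4, so the order held at both lengths. Tnc had 2 gene-end peaks in every library, and the difference lay inside the gene: peaks 35.4, 36.8 and 53.3 kb from its start were in both ectoderm libraries and in no Sox2-positive library at either length, and the lower molar alone shared 1 of them. Thbs1 (thrombospondin 1) had 2 and 3, 1 and 1, and 1 in each tooth, and 8 and 4, 1 and 1, and 3, 3 and 4 with full lists. The single equal-length peak of Thbs1 in each Sox2-positive and tooth library was a gene-end peak.

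Fbln1 (fibulin 1) had the most locus peaks of all 31 genes over the 7 libraries, 10 and 8 in ectoderm, 11 and 7 in Sox2-positive cells, and 7, 11 and 11 in the teeth, and the groups overlapped. Sparc, whose product binds collagen in bone and dentin, had 5 and 3, 5 and 9, and 11, 7 and 5. Fn1 (fibronectin) had 1 and 2, 2 and 2, and 4, 3 and 4. Mgp (an inhibitor of calcification) had 4 and 3, 3 and 1, and 4, 3 and 4, Tnn 2 and 2, 2 and 3, and 3, 1 and 2, and Postn 0 and 1, 0 and 2, and 1, 0 and 0. None of these 6 separated ectoderm from Sox2-positive cells at equal length.

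The 3 crosslinking and turnover genes had 6 and 8 locus peaks in ectoderm, 12 and 17 in Sox2-positive cells, and 13, 15 and 12 in the teeth. With full lists ectoderm had 19 and 13 and Sox2-positive cells 13 and 17. Timp3, a protease inhibitor bound to matrix, had 3 and 4, 6 and 9, and 6, 8 and 7, and Mmp2 (gelatinase A) had 3 and 4, 6 and 6, and 6, 6 and 4. With full lists neither separated the sources: Timp3 had 10 and 6, 7 and 9, and Mmp2 8 and 6, 6 and 6. Lox had 0 and 0, 0 and 2, and 1 in each tooth.

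Merged regions, made by joining the peaks of all 7 lists that share at least 1 bp, gave 327 regions at these loci with full lists and 213 at equal length. Shared by the Sox2-positive pair and absent from ectoderm were 33 regions (10.1%), beside 5.65% of the regions at all gene loci, and at equal length 37 (17.4%), beside 11.4%. Shared by the ectoderm pair and absent from Sox2-positive cells were 37 (11.3%), beside 17.4%, and 17 (7.98%), beside 14.7%. Of the regions of the Sox2-positive pair without ectoderm, Col5a1 held 7 and Col1a1 held 6 at equal length. In the full lists Col5a1 again held 7, but Col1a1 held 2. With full lists the 33 became 72 without Sox2-positive replicate 1 and 52 without replicate 2, and the 37 ectoderm regions became 86 without ectoderm replicate 2. These relaxed counts have no share of all regions beside them. Regions in all 7 libraries were 40 (12.2%, and 17.3% at all loci) and 29 (13.6%, and 22.9%).

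**Figure D5:**
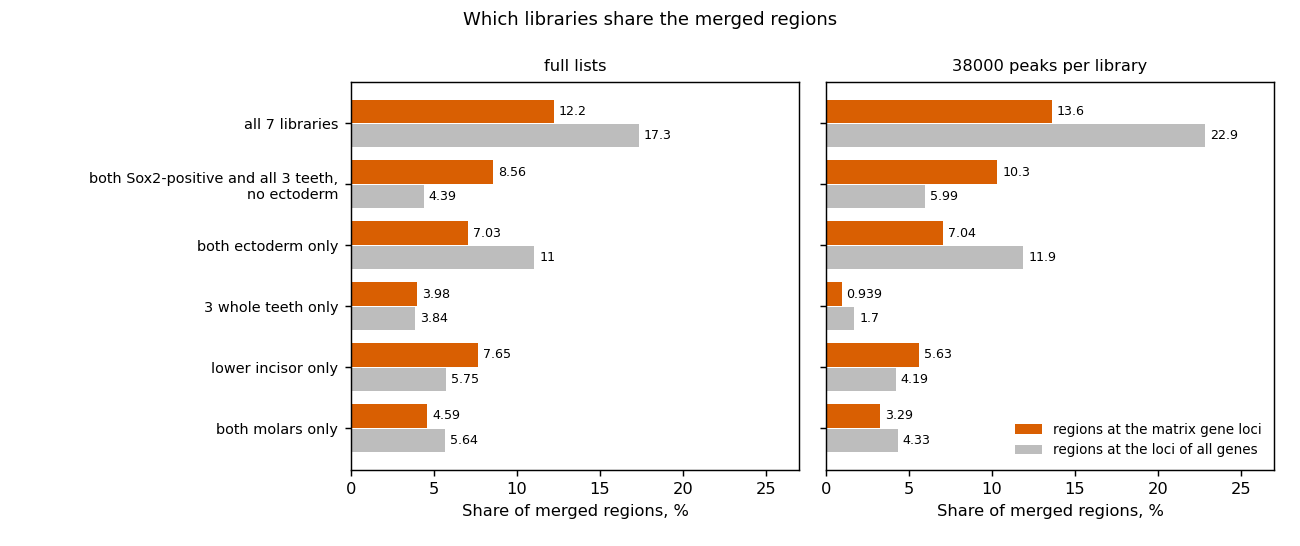
Share of merged regions in percent (horizontal axis) that have a peak in the named libraries (vertical axis), at the matrix gene loci (orange) and at the loci of all genes (grey), with full lists on the left and 38000 peaks per library on the right. Regions in all 7 libraries are 12.2% and 13.6% of the matrix regions against 17.3% and 22.9% of all, and regions in Sox2-positive cells and teeth without ectoderm 8.56% and 10.3% against 4.39% and 5.99%.

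Of the 33 regions of the Sox2-positive pair without ectoderm, 32 (97.0%) were in at least 1 whole tooth, near the 96.3% at all loci, and of the 37 at equal length 34 (91.9%, and 87.8% at all loci). Of the 33 with full lists, 32 were in the lower incisor (97.0%, and 91.8% at all loci), and of the 37 at equal length, 32 (86.5%, and 78.9%). In both Sox2-positive libraries and no tooth was 1 region (0.324% of regions at all loci), inside Timp3 at chr10:86329150-86329969 with a mean percentile of 11.6, and 3 at equal length (2.11%). Regions in both Sox2-positive libraries and all 3 teeth without ectoderm numbered 28 (8.56%, and 4.39% at all loci). By mean percentile the first were inside Vcan at chr13:89668781-89670340 (87.4), 2.16 kb outside Col1a1 at chr11:94933030-94935092 (79.2), and 21.6 kb outside Tnn at chr1:160174833-160175661 (77.2).

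Regions in both ectoderm libraries and no other numbered 23 (7.03%, and 11.0% at all loci). Another 35 (10.7%, and 17.0%) were in ectoderm replicate 1 alone, and 1 (0.306%, and 0.527%) in replicate 2 alone. The 23 were led by one inside Fbln1 at chr15:85276898-85278102, one 2.83 kb outside Vcan at chr13:89745630-89746080 and one 6.09 kb outside Mgp at chr6:136881669-136882157. Of regions shared by all 7, the first by percentile was not at a matrix gene: chrX:73458554-73459635, inside the Bgn window, has its centre 0.065 kb from an end of Haus7. The second, at chr11:55417462-55420713, spans 1 end of Sparc. Peaks near an end of a gene outside the list were 3.01% of the 1162 pairs of gene and peak, and the equal-length sums without them were 68, 67, 111, 130, 135, 102 and 102.

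The 2 Sox2-positive libraries differed from each other at these loci. With full lists 36 regions of replicate 1 (31.3% of its regions at these loci) were not in replicate 2, and 47 of the 126 of replicate 2 (37.3%) were not in replicate 1; at all loci the shares were 25.7% and 20.0%. Of the 47, 44 (93.6%) were in the lower incisor, and of the 36, 25 (69.4%) were, beside 82.6% and 57.3% at all loci. Replicate 2 was the higher of the pair at 15 of 31 genes, replicate 1 at 10, and 6 were equal at equal length. Other lists were also higher in replicate 2 at equal length: mesenchyme regulators with 61 locus peaks against 46, odontoblast and bone genes with 52 against 31, endothelial genes with 52 against 41, pericyte genes with 38 against 33, blood and immune genes with 29 against 23, and epithelial genes with 116 against 110. Genes of dental epithelium, with 14 against 17, were lower. Taken singly at equal length and compared with ectoderm replicate 1, replicate 1 was higher at 21 genes and lower at 3, and replicate 2 was higher at 22 and lower at 4. Compared with ectoderm replicate 2 they were higher at 20 and lower at 4, and higher at 20 and lower at 6. Against ectoderm replicate 1, the longest list, the direction reversed with full lists: Sox2-positive replicate 1 was higher at 7 genes and lower at 16, and replicate 2 higher at 11 and lower at 18. Against ectoderm replicate 2 it held, with 18 higher and 7 lower, and 19 higher and 7 lower. These library-by-library counts have no share of all genes beside them, so they cannot be read as particular to the matrix genes. Over all genes the full-list sums were also higher in ectoderm replicate 1, with 109540, than in the Sox2-positive libraries, with 66024 and 61748. Ectoderm replicate 2 had 76146. Whether cells other than epithelium enter either library was not tested.

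Whole teeth against Sox2-positive cells depended on list length. With full lists all 3 teeth had more locus peaks than both Sox2-positive libraries at 16 of 32 genes, beside 27.5% of all genes, and fewer at 0, beside 0.631%. At equal length all 3 teeth were higher at 1 of 31, Fn1, beside 4.26%, and lower at 2, Col1a2 and Vcan, beside 7.02%. Counted as merged regions neither Col1a2 nor Vcan stayed lower, with 0 such genes. For regions, 20 (6.12%) were in all teeth and neither Sox2-positive library with full lists, beside 6.38%, and 2 at equal length, beside 2.22%. By mean percentile the regions in the 3 teeth alone were led by one inside Fn1 at chr1:71647951-71648450 (72.4), one inside Col5a1 at chr2:27993430-27993837 (56.8) and one 22.9 kb outside Sparc at chr11:55442676-55443327 (49.8). At equal length these counts lay at or below the share of all genes or regions.

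Whole teeth against ectoderm gave 16 of 32 genes higher in all 3 teeth with full lists, beside 11.4% of all genes. At equal length 11 of 31 were higher, beside 11.6%. Without ectoderm replicate 1, which relaxes the rule, the full-list count was 28, with no share of all genes beside it. The 11 were Col1a1, Col1a2, Col5a1, Col6a3, Fn1, Fbn2, Lox, Ogn, Omd, Thbs2 and Timp3. Col1a1 and Col5a1 were also among the 11 when merged regions were counted, and Col1a2 was not. Col5a2, with 1 and 2 locus peaks in ectoderm and 3, 2 and 2 in the teeth, overlapped at equal length.

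The lower incisor was also compared with the molars, a comparison of single libraries added after seeing the data. At equal length it had more locus peaks than both molars at 14 of 31 genes (18.5% of all genes) and fewer at 2, Timp3 and Fbln1 (17.9%). With full lists the counts were 10 (15.8%) and 6 (26.7%), the sums of 226 and 224 in incisor and lower molar were close, and each of these was higher than the other at 10 genes, with 12 equal. Among the 14 were Col1a1, with 11 against 8 and 6, Sparc, with 11 against 7 and 5, and Fbn1, with 8 against 3 and 2. Mesenchyme regulators had 61 locus peaks in the incisor against 24 and 23 in the molars, and epithelial genes had 109 against 132 and 121.

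Other genes of the same pathway were counted beside the list. Of 17 other collagen genes, 6 had more equal-length locus peaks in both Sox2-positive libraries than in both ectoderm libraries, among them Col16a1, Col22a1 and Col27a1, and 1 fewer, Col18a1, a basement membrane collagen. Of 39 other matrix genes 11 were higher, among them Fbln2, Emilin1 and Tgfbi, and 5 lower, among them Ecm1 and Has2. Of 37 genes of collagen processing and matrix turnover 12 were higher, including Pcolce, which enhances collagen precursor cleavage, Adamts2, which performs it, and Mmp14, and 5 were lower. The 3 shares of higher genes, 35.3%, 28.2% and 32.4%, lay above the 15.2% of all genes. The rule for lower genes, met by 1 of 17, 5 of 39 and 5 of 37, held for 17.9% of all genes. With full lists the higher counts were 3, 1 and 6, and the lower counts 4 of 17, 12 of 40 and 10 of 38, beside 3.46% and 34.4% of all genes.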

How the data were processed

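Omni-ATAC libraries were compared from the peak lists of 7 samples; groups and replicate numbers follow the titles. Deposited were narrowPeak lists, 1 per library, made by the authors with Genrich per the file names; the submitters' processing notes also name FastQC, Trimmomatic, Bowtie2, deepTools and build mm10, with no version or order given in the sources used here. Read filters, duplicate removal and the shift of reads for the transposase are not given in the sources used here and could move peak edges and counts. The authors' signal (column 7) and −log10 p (column 8) of a peak are not scaled between libraries by anything in the files, so they were used only to rank peaks within a deposited list. The deposited score (column 5) and the unfilled q-value column were not used.

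Gene positions came from RefSeq for GRCm38.p6, the build of mm10, and start sequences from RefSeq's table of the same assembly; no genome sequence or exon table was used. Summits were placed at gene ends (1 kb) and loci (25 kb). Lists of equal length hold 38000 autosomal peaks by −log10 p, ties broken by signal. Python 3.11.15 with pandas 2.3.3 and numpy 2.4.6 was used, and counting was tested on simulated data. The genes, lists and rules were chosen with earlier results of these data known. Values per library are given for genes that differ between ectoderm and Sox2-positive cells or have gene-end peaks in all or no libraries, and for the gene with most peaks in each role; regions are the 3 of highest mean percentile in each pattern. Other genes are named to account for the whole list, after their values were seen, as were details of peaks inside single genes. Alternatives were other list lengths, windows, flanks, single replicates, removal of peaks near other genes and counting of merged regions.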

Additional observations from a re-analysis of the deposited data

How the results depend on the processing

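List length moved most counts. With 38000 peaks per library by p-value, by signal, and with 50% of each list, genes with a gene-end peak in all 3 teeth went from 27 to 16, 17 and 15, those in the Sox2-positive pair without ectoderm from 1 to 2, 2 and 0, and those in all teeth and neither Sox2-positive from 2 to 0, 0 and 1; those in the ectoderm pair without Sox2-positive went from 1 to 3 with 50%. Genes with more locus peaks in both Sox2-positive libraries than in ectoderm went from 4 to 14 and 14 with 38000, and the reverse from 5 to 2 and 3. Genes higher in teeth than in Sox2-positive cells went from 16 to 1, 1 and 8, lower from 0 to 2, 2 and 1, and higher in molars than in the incisor from 6 to 2, 2 and 2; teeth over ectoderm went from 16 to 8 with 50%. Regions in the ectoderm pair without Sox2-positive went from 37 to 17, 21 and 15, in teeth and neither Sox2-positive from 20 to 2, 3 and 8, in both Sox2-positive and no tooth from 1 to 3, 4 and 0, and in both Sox2-positive and neither ectoderm from 33 to 11 with 50%.

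With the annotated start alone, gene-end counts were 13 for both ectoderm libraries, 16 for all teeth and 1 for teeth without Sox2-positive; a 2.5 kb window gave 0 for ectoderm without Sox2-positive and 0 for teeth without Sox2-positive. A 5 kb flank gave 9 genes higher in teeth than in Sox2-positive cells, 21 regions in both Sox2-positive and neither ectoderm, and 10 in teeth and neither Sox2-positive. Requiring 50% of a region to be covered left 0 in both Sox2-positive and no tooth. Alternatives added after seeing the data, at 38000 peaks, gave 15 genes higher and 2 lower in Sox2-positive cells and 16 regions in ectoderm alone of the pair without peaks near other genes, and with merged regions counted 14 higher and 2 lower, 1 higher in teeth than Sox2-positive cells and 2 higher in molars than the incisor.

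Leaving out 1 replicate at a time relaxes each rule that asks for both. The counts that follow have no share of all genes or regions beside them. Gene-end counts ranged from 20 to 23 for Sox2-positive and from 20 to 23 for ectoderm, from 1 to 3 and from 1 to 4 for each without the other, and from 4 to 7 for teeth without Sox2-positive. Genes higher in Sox2-positive cells than ectoderm ranged from 4 to 13 with full lists and from 16 to 20 at equal length (18 without Sox2-positive replicate 2), the reverse from 5 to 14 and from 2 to 4, teeth over Sox2-positive from 21 to 22, teeth under Sox2-positive stayed at 0, and teeth over ectoderm from 16 to 28. Regions ranged from 34 to 72 and from 38 to 82 (58 without Sox2-positive replicate 2) in Sox2-positive without ectoderm, from 38 to 86 and from 17 to 26 in ectoderm without Sox2-positive, were 41 in teeth without Sox2-positive, and ranged from 3 to 4 in Sox2-positive without teeth. Of 186 settings, 105 left the count within 1.5 times. No paired analysis was possible because the results are counts from peak lists and come from no test. The cause of each shift was not tested, apart from fewer peaks entering shorter lists. Depth is unknown, which limits every statement about a missing peak.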
